A study of Homo sapiens with 3 samples.

Results

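The 46 genes described here encode proteins that copy DNA and divide the chromosomes, 19 of them in DNA replication and 27 in mitosis. They were listed by gene symbol, with earlier results of these data known, and a gene was measured where a probe set of the array named that gene alone. By this rule all 46 genes were measured, by 91 probe sets, among 19775 genes in all. Expression was compared between IMR-32 and NGP, neuroblastoma cell lines that both carry amplified MYCN, and a Reference pool of mRNA from 16 cancer cell lines. The cells were untreated and grown with fetal bovine serum, NGP in an RPMI medium and IMR-32 in Minimum Essential Medium with non-essential amino acids and pyruvate, so medium and line cannot be told apart. The medium of the pool's lines was not stated in the sources. IMR-32 and NGP are each 1 cultured line, and the labels do not name the lines of the pool. There was 1 array for each sample, so the values carry no replicate error, no p-value can be given, and the number of arrays limits the precision.

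DNA replication begins when origins are licensed by loading of the MCM2-7 helicase in G1 phase, and the helicase is then activated by CDC45 and GINS to open the DNA for the polymerases. Mitosis follows under control of CDK1 and the B-type cyclins, with the Aurora and Polo kinases, the spindle checkpoint, motor proteins and kinetochores guiding the chromosomes. Many replication genes are switched on by E2F factors at the start of S phase, and many mitosis genes later in the cycle by the MuvB complex with MYBL2 and FOXM1. The DREAM complex, which also contains MuvB, represses genes of both kinds in resting cells and in G1 phase. These mRNAs are typical of dividing cells.

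A signal is the MAS5 intensity of a probe set, with a trimmed mean of 500 on each array. The array median, taken over probe sets that name 1 gene, was 119.9 in IMR-32, 125.4 in NGP and 159.6 in the pool. A ratio is the log2 of one sample's signal over another's, with the median taken where a gene has several probe sets, and a gene is called higher or lower at a change of at least 2-fold. Of the 91 probe sets, 74 were at or above the array median in all 3 samples, and the brightest probe set of each of the 46 genes was so. Over 20 of these genes with several such bright probe sets, the ratios of a gene's probe sets had an SD of 0.35 (log2) for IMR-32 over the pool, 0.44 for NGP over the pool and 0.51 for NGP over IMR-32, which is disagreement within 1 array pair and not replicate error. The labelled cell type was checked on 11 measured sympathoadrenal genes, of which 7 were at least 2-fold higher than the pool in IMR-32 and 10 in NGP. In IMR-32, TH at -1.40 and GATA2 at -1.34 were lower than the pool. All 8 epithelial genes were at least 2-fold lower than the pool in both lines, such as KRT18 with 98.2 in IMR-32 and 117 in NGP, against 28088 in the pool. The mesenchymal list had a median ratio of -2.80 in IMR-32 and -0.95 in NGP, and the haematopoietic list of 8 genes -0.07 in IMR-32 and -0.64 in NGP. With dim probe sets left out, 6 haematopoietic genes remained in each comparison, with a median of -1.24 in IMR-32 and -0.36 in NGP. The part of the pool's other cell types in the results was not tested. Dividing each array by its median moved the median ratio of all genes up by 0.41 for IMR-32 over the pool and by 0.35 for NGP over the pool, and changed it by -0.07 for NGP over IMR-32.

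The replication and mitosis genes lay mostly above the pool in both lines, while on the deposited scale the median gene of the array lay below it. In IMR-32 the median ratio of the 46 genes was 0.44, against -0.23 for all 19775 genes, and 36 of 46 genes (78.3%) were above the pool, against 41.6% of all genes. In NGP the median was 0.59, against -0.22 for all genes, and again 36 of 46 were above the pool, against 42.3% of all genes. Of the 46 genes, 29 were above the pool in both lines, 7 in IMR-32 but not NGP and 7 in NGP but not IMR-32. This split was not counted over all genes. It also turns on genes close to the pool, such as PLK1 at 0.00 and MKI67 at -0.01 in NGP. CCNB2 counted as below the pool in NGP through a dim probe set, while its bright one was above the pool in both lines. Both comparisons share the pool array, so a low or high reading there moves both. The median of the 46 genes lay 0.67 above that of all genes in IMR-32 and 0.81 in NGP, a gap that dividing each array by its median cannot move. With quantile-normalized arrays, which can move it, the gap was 0.40 in IMR-32 and 0.57 in NGP. The side of the pool on which a gene lay depended on the scale for the genes near it, since 10 genes were below the pool in each line on the deposited scale, and 4 in IMR-32 and 3 in NGP with each array divided by its median.

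Calls of at least 2-fold were few beside the shift of the 46 genes. In IMR-32, 9 of the 46 genes (19.6%) were at least 2-fold higher, against 14.4% of all genes, and 2 (4.35%) were at least 2-fold lower, against 26.9%. In NGP, 12 of 46 (26.1%) were at least 2-fold higher, against 15.4% of all genes, and 0 were lower, against 27.1%. With dim probe sets left out, the counts were 9 higher and 1 lower in IMR-32, against 15.2% and 23.8% of all genes, and 12 higher and 1 lower in NGP, against 15.9% and 25.2%. With all probe sets, the genes called higher in both lines were MCM3, MCM6, MCM10, KIF11, ASPM, NUF2 and TOP2A. ORC1 and MAD2L1 were called higher in IMR-32 alone, and MCM4, CDC45, GINS2, AURKB and CENPF in NGP alone. This split was not counted over all genes, and CENPF was just short of 2-fold in IMR-32, at 0.99. The genes called lower, in IMR-32, were AURKA and CDC20. With dim probe sets left out, CENPF was called higher in IMR-32 and TOP2A, at 0.998, was not, so the 9 higher genes were not the same. The study, which integrated its data by probe set, took the top and bottom 7% of ratios in a sample. Applied here to gene medians over probe sets (7% of genes at each end), that rule called 0 of the 46 over- or underexpressed in IMR-32. In NGP, where the upper limit was 1.84, only ASPM and MCM6 were overexpressed. The brightest probe set gave 1.72 for ASPM and 1.42 for MCM6 in NGP, below that limit, while that of MCM4 gave 2.04. More of these genes than of all genes were within 2-fold of the pool, 35 of 46 (76.1%) in IMR-32, against 58.7% of all genes, and 34 (73.9%) in NGP, against 57.5%. The all-gene shares include many dim probe sets. Over all genes with several, the ratios of a gene's probe sets had an SD of 1.31 (log2) in IMR-32 and 1.41 in NGP. Over probe sets at or above the array median in all 3 samples it was 0.52 in IMR-32 and 0.61 in NGP. With dim probe sets left out, 36 of the 46 were within 2-fold in IMR-32, against 7846 of 12877 genes, and 33 in NGP, against 7674 of 13015. With each array divided by its median the counts were 19 higher and 0 lower in IMR-32 and 21 higher and 0 lower in NGP. Of all 19775 genes, 4590 were then higher and 3846 lower in IMR-32, and 4375 higher and 4094 lower in NGP. The share of higher genes among all genes called was then 54.4% in IMR-32 and 51.7% in NGP. On the deposited scale that share was 34.9% in IMR-32 and 36.3% in NGP. In bulk mRNA, a larger share of dividing cells and more mRNA in each dividing cell cannot be told apart.

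**Figure D1:**
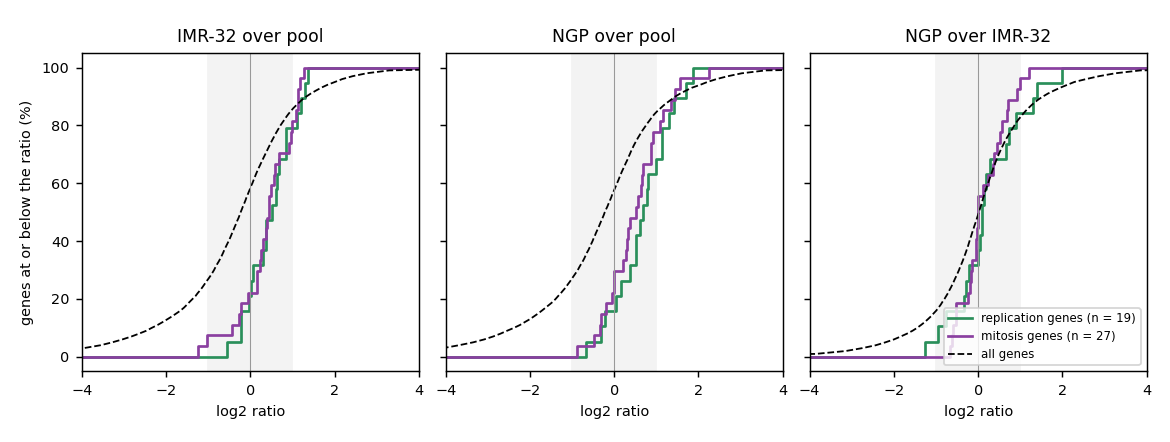
Share of genes at or below each log2 ratio, for the replication genes (green, n = 19), the mitosis genes (purple, n = 27) and all 19775 genes (dashed), with ratios within 2-fold shaded. Over the pool both gene groups lie to the right of all genes, with medians in IMR-32 of 0.52 (replication) and 0.44 (mitosis), and in NGP of 0.68 (replication) and 0.52 (mitosis), whereas between the lines the medians of the 46 genes (0.07) and of all genes (0.02) are close and the 46 genes spread less, with 89.1% against 66.9% within 2-fold. The curve of all genes includes many dim probe sets, whose ratios scatter widely.

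The start regions of the replication and mitosis genes differ in their letters. From 250 bases before to 50 bases after the RefSeq transcript start (GRCh38.p14), 41 of the 46 genes had 49 promoters, while AURKA, MCM4, MCM5, TPX2 and TTK had none in the table used. An E2F motif was taken as TTTCCCGC, TTTGGCGC, TTTCGCGC or TTTGCCGC on either strand, and matches that overlap were each counted. It was found in 12 of 23 replication promoters (52.2%) and 3 of 26 mitosis promoters (11.5%), against 3.31% of all 35116 promoters. The sequences printed here all come from replication genes with an E2F motif. They are those of MCM6, called higher in both lines, and of GINS2 and TYMS, the outermost genes between the lines. CDT1, which lies with GINS2 in the part of 16q lost in IMR-32, and PCNA, the sliding clamp, called in neither line, are also shown. MCM10, CDC45 and ORC1, each called higher in at least 1 line, had promoters without an E2F motif and are not printed. Capitals mark E2F motifs and CCAAT boxes on either strand, each sequence reads toward its transcript start, and the windows are chr2:135876483-135876603 (minus strand, 160 to 40 bases before the start), chr16:85688955-85689119 (minus strand), chr16:88803689-88803788 (plus strand), chr18:657553-657652 (plus strand) and chr20:5126623-5126782 (minus strand), the last 4 ending at the base before the start.
MCM6: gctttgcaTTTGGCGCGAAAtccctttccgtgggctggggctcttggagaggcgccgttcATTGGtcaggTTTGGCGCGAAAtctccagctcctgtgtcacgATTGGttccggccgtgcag
GINS2: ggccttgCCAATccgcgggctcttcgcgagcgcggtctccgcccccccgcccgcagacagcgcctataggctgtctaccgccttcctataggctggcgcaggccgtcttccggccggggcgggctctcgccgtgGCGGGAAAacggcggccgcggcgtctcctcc
CDT1: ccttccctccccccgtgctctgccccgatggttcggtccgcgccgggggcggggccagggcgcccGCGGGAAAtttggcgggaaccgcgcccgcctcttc
TYMS: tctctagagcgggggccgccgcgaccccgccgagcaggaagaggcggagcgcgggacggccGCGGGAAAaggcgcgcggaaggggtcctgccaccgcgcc
PCNA: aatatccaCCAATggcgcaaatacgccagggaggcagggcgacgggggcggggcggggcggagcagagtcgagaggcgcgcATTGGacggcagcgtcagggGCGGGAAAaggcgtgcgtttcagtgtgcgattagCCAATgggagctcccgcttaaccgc

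In MCM6 the stretch TTTGGCGCGAAA occurs at both sites, and each gives 2 overlapping matches, TTTGGCGC on one strand and TTTCGCGC on the other. GINS2, CDT1, TYMS and PCNA each hold GCGGGAAA, the reverse complement of TTTCCCGC, before the start. The median E2F match of replication genes lay 37 bases before the start.

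Mitosis promoters instead carried the cell cycle homology region (CHR), taken as TTTGAA or TTTAAA on either strand. It was found in 22 of 26 mitosis promoters (84.6%) and 2 of 23 replication promoters (8.7%), against 24% of all promoters. CCAAT boxes, read as CCAAT on either strand, were found in 21 of 26 mitosis promoters (80.8%) and 16 of 23 replication promoters (69.6%), against 34.6% of all promoters. Both CHR and CCAAT box were present in 17 of 26 mitosis promoters and 1 of 23 replication promoters, against 9.27% of all. The promoters printed here all hold a CHR. They are of CDC20, called lower in IMR-32, ASPM, the highest gene of NGP, and KIF11, called higher in both lines. The others are of CCNB2, with 3 boxes and 1 CHR in the stretch shown, and MKI67, the proliferation marker. AURKB, called higher in NGP, had promoters with a CCAAT box but no CHR and is not printed. Capitals mark CHR and CCAAT boxes, and the windows, which end at the base before the start, are chr1:43358861-43358980 (plus strand), chr1:197146670-197146809 (minus strand), chr10:92593050-92593129 (plus strand), chr15:59105016-59105145 (plus strand) and chr10:128126424-128126533 (minus strand).
CDC20: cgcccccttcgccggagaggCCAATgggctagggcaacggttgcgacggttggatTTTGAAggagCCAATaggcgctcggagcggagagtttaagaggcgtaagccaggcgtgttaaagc
ASPM: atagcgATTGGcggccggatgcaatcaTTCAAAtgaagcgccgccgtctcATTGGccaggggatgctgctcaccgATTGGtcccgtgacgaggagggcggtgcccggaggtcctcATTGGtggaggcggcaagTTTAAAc
KIF11: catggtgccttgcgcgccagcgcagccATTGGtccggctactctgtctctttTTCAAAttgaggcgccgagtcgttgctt
CCNB2: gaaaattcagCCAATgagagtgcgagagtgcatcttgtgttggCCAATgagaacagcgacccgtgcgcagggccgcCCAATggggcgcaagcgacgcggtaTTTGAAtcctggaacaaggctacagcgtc
MKI67: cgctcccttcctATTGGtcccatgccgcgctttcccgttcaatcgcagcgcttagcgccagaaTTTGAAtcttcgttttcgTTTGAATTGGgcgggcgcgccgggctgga

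In MKI67 the CHR and a CCAAT box share letters in the stretch TTTGAATTGG. Among mitosis genes the median CHR match lay 51 bases before the start and the median CCAAT box 79 bases before it. The same contrast was seen in the other genes of each process, with E2F motifs in 28% of 50 other replication promoters and 9.21% of 76 other mitosis promoters, and CHR in 16% of the other replication and 59.2% of the other mitosis promoters. A match describes letters in the window and was not tested as a binding site.

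**Figure D2:**
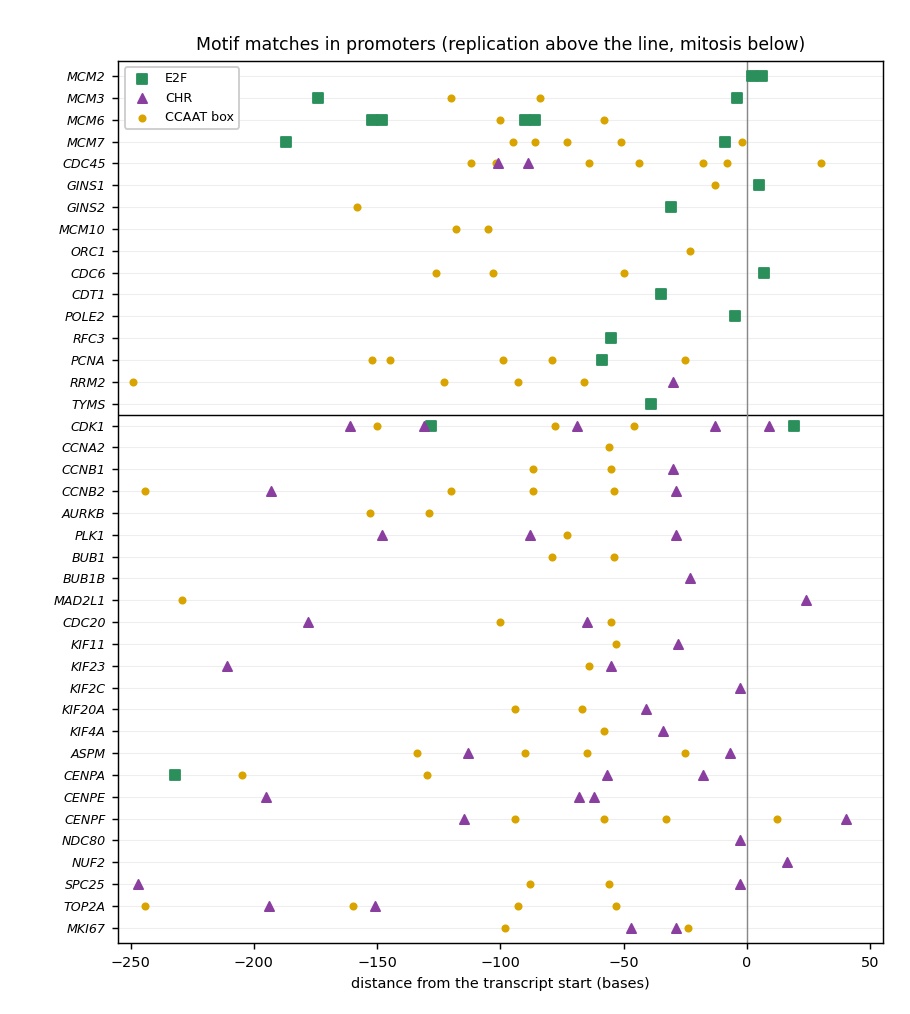
Positions of E2F motifs (green squares), CHR (purple triangles) and CCAAT boxes (yellow dots) by distance from the transcript start in bases, for the genes with at least 1 match, replication genes above the line and mitosis genes below. E2F matches gather in the upper rows, with a median 37 bases before the start, and CHR matches in the lower rows, with a median 51 bases before it.

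The MCM2-7 helicase, the ring that unwinds DNA at the fork, lay above the pool in 6 of 6 subunits in IMR-32, with a median ratio of 0.73. In NGP 5 of 6 were above it, with a median of 0.90. MCM6 had signals of 10675 in IMR-32 and 16480 in NGP, against 6170 in the pool, on its brightest probe set. Its ratio was 1.21 (2.32-fold) in IMR-32 and 1.88 (3.67-fold) in NGP, and its dimmer probe set gave a larger change than the bright one in both lines. MCM3 read 9401 in IMR-32 and 10653 in NGP, against 4347 in the pool, with ratios of 1.11 in IMR-32 and 1.29 in NGP. MCM4 parted the lines, with signals of 3091 in IMR-32 and 8291 in NGP, against 2023 in the pool. Of its 5 probe sets, the 4 bright ones were 1.55 to 2.04 above the pool in NGP, and the fifth, below the array median in all 3 samples, was at -0.28. MCM2 ran the other way, at 10655 in IMR-32 and 5545 in NGP, against 6913 in the pool, so that NGP alone was below the pool. MCM5, with ratios of 0.83 in IMR-32 and 0.50 in NGP, and MCM7, with 0.37 in IMR-32 and 0.38 in NGP, were within 2-fold of the pool in both lines. The subunits of this ring thus differed among themselves in NGP, from -0.32 for MCM2 to 1.88 for MCM6.

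CDC45 and the GINS complex join the ring to form the active helicase, and MCM10 helps to fire it. In NGP 4 of 4 of these genes were above the pool, with a median of 1.13, and 3 were called higher. In IMR-32 the median was 0.35, and MCM10 alone was called. CDC45 had signals of 1739 in IMR-32 and 4570 in NGP, against 1720 in the pool, so that IMR-32 and the pool were level and NGP was 2.66-fold above the pool. GINS2 read 1955 in IMR-32 and 7741 in NGP, against 3555 in the pool, with IMR-32 below and NGP above the pool. Its 3 probe sets gave the same directions, lying between -0.86 and -0.55 in IMR-32 and between 0.97 and 1.59 in NGP, although 2 of them were below the array median in IMR-32 and the pool. GINS1, a partner in the same complex, did not part the lines, at 3821 in IMR-32 and 4071 in NGP, against 2387 in the pool. MCM10 was 2.45-fold higher in IMR-32 and 2.20-fold higher in NGP, with 2530 in IMR-32 and 2611 in NGP on its brightest probe set, against 1186 in the pool.

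Origins are marked by the origin recognition complex, of which ORC1 is a subunit, and CDC6 and CDT1 load the MCM ring onto them. ORC1 had the highest ratio of the 46 genes in IMR-32, at 1.37, with signals of 1365 in IMR-32 and 810 in NGP, against 527.2 in the pool. NGP lay between the other two, 1.54-fold above the pool. CDC6 differed little, with ratios of 0.38 in IMR-32 and 0.17 in NGP. CDT1 read 1119 in IMR-32 and 2175 in NGP, against 1714 in the pool, on its brightest probe set. The 2 probe sets of CDT1 disagreed on the direction in IMR-32, at -0.62 and 0.17, but both placed NGP above IMR-32, by 0.96 and 0.86.

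Among polymerase and clamp genes, PCNA, the sliding clamp, had signals of 14651 in IMR-32 and 17811 in NGP, against 10251 in the pool, and ratios of 0.52 in IMR-32 and 0.80 in NGP. RFC3, a subunit of the clamp loader, was at 0.85 in IMR-32 and 0.99 in NGP, just short of 2-fold. Its dimmest probe set went the other way in NGP, at -0.66, while the other two were at 0.99 and 1.12. RFC4 and POLE2, a loader subunit and a subunit of polymerase epsilon, were close to the pool, within 0.23 of 0 in both lines. No member of this group reached 2-fold in either line.

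On the deposited scale both enzymes of nucleotide supply lay on opposite sides of the pool in the 2 lines, though RRM2 in IMR-32 was above the pool with each array divided by its median. RRM2, the regulated subunit of ribonucleotide reductase, was at -0.23 in IMR-32 and 0.51 in NGP. It had 12486 in IMR-32 and 18338 in NGP, against 10000 in the pool, on its brightest probe set. The second probe set had 8018 in IMR-32 and 15307 in NGP, against 13821 in the pool, so that IMR-32 was above the pool on one and below it on the other. TYMS, which makes thymidylate and is a target of fluorouracil, had 20869 in IMR-32 and 13620 in NGP, against 16871 in the pool. Its gene ratios were 0.31 in IMR-32 and -0.68 in NGP. NGP was below both other samples on all 3 TYMS probe sets.

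**Figure D3:**
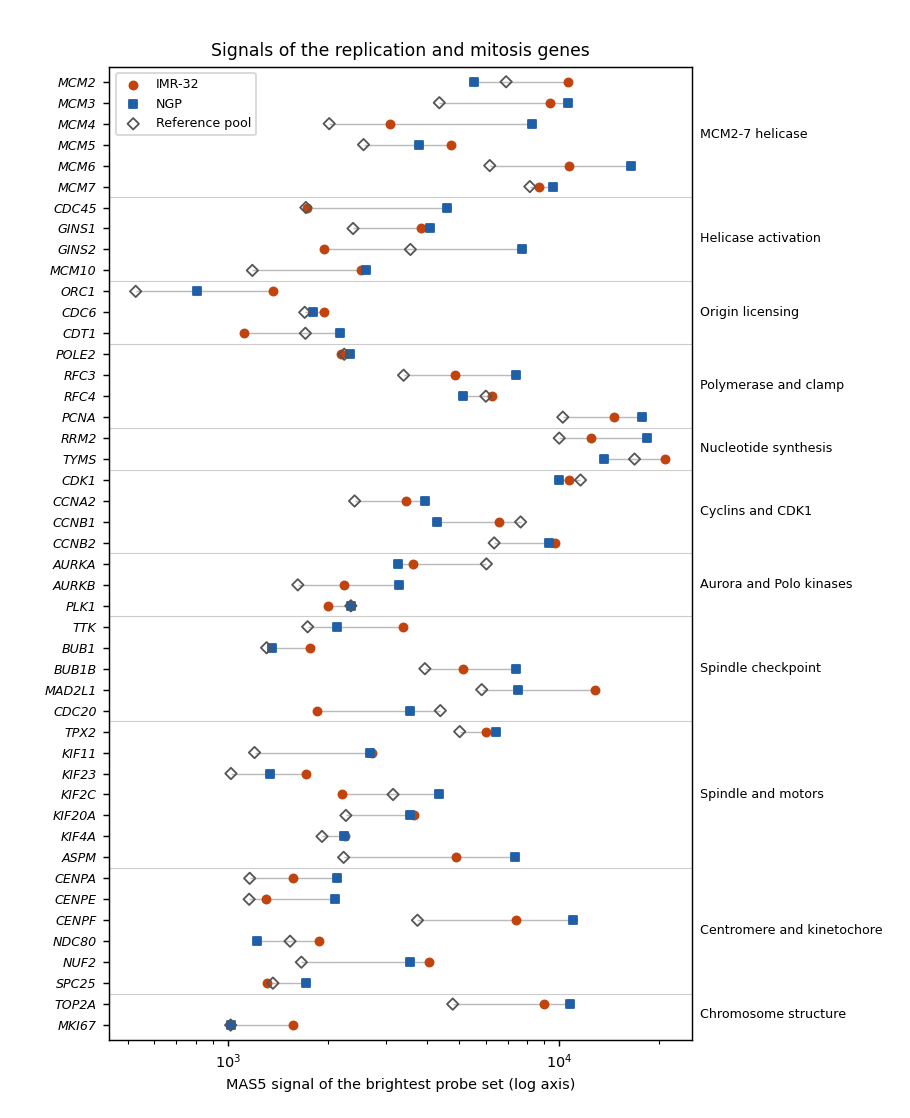
MAS5 signal of the brightest probe set of each gene on a log axis, in IMR-32 (circles), NGP (squares) and the Reference pool (open diamonds), with genes grouped by role and a line joining lowest and highest. In MCM3, MCM6, KIF11, ASPM and TOP2A the pool is lowest, GINS2 and CDC45 stand highest in NGP, and AURKA and CDC20 are highest in the pool.

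CDK1, the kinase that drives entry into mitosis, and its cyclins stayed within 2-fold of the pool. CDK1 had 10709 in IMR-32 and 10017 in NGP, against 11589 in the pool, and was below the pool on each of its 4 probe sets in both lines. CCNA2 was 1.47-fold above the pool in each line, at 3437 in IMR-32 and 3929 in NGP, against 2413 in the pool. CCNB1, which activates CDK1, gave 6567 in IMR-32 and 4279 in NGP, against 7645 in the pool, on its brighter probe set, but 2072 in IMR-32 and 1511 in NGP, against 916.8 in the pool, on the other. The pool was thus highest on one CCNB1 probe set and lowest on the other. CCNB2 had 9710 in IMR-32 and 9314 in NGP, against 6363 in the pool, with ratios of 0.61 in IMR-32 and 0.55 in NGP on its bright probe set, whereas the gene ratios of 0.41 in IMR-32 and -0.48 in NGP were those of a dim one.

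Of the kinases that act at the spindle, AURKA was the lowest of the 46 genes in NGP, at -0.88, and just over 2-fold lower in IMR-32, at -1.02. It read 3616 in IMR-32 and 3272 in NGP, against 6028 in the pool, on its brightest probe set, and both lines were below the pool on all 3 probe sets. With the dimmest probe set left out the ratios were -0.88 in IMR-32 and -1.05 in NGP, which exchanged the line that passed 2-fold. With each array divided by its median, AURKA passed in neither line. AURKB, the kinase of the chromosomal passenger complex, had 2235 in IMR-32 and 3288 in NGP, against 1626 in the pool, and was called higher in NGP at 1.36. PLK1, the Polo kinase, had 2009 in IMR-32 and 2353 in NGP, against 2351 in the pool, with ratios of -0.23 in IMR-32 and 0.00 in NGP.

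The spindle checkpoint holds cells back from anaphase until every chromosome is attached, and CDC20 is the anaphase activator that it restrains. CDC20 had 1856 in IMR-32 and 3538 in NGP, against 4377 in the pool, and at -1.24 (2.36-fold) was the lowest of the 46 genes in IMR-32. It has a single probe set, so no second reading was at hand. MAD2L1, the checkpoint protein that binds CDC20, was on the opposite side, at 12827 in IMR-32 and 7529 in NGP, against 5834 in the pool. All 3 MAD2L1 probe sets put IMR-32 at least 2-fold above the pool, from 1.02 to 1.25. TTK, the kinase that starts the checkpoint signal, read 3375 in IMR-32 and 2139 in NGP, against 1741 in the pool, and stayed just short of 2-fold in IMR-32, at 0.95. BUB1B, the checkpoint protein BubR1, was at 0.38 in IMR-32 and 0.91 in NGP. BUB1 was at 0.44 in IMR-32 and 0.52 in NGP, but its 5 probe sets spread over -1.85 to 3.63 in IMR-32 and over -3.13 to 3.89 in NGP, with 3 of the 5 below the array median in every sample. On its 2 bright probe sets BUB1 was above the pool in both lines.

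Among spindle and motor genes 6 of 7 were above the pool in IMR-32 and 7 of 7 in NGP. ASPM, a spindle pole protein mutated in human microcephaly, had signals of 4877 in IMR-32 and 7373 in NGP, against 2236 in the pool. Its ratio of 2.24 (4.73-fold) in NGP was the highest gene ratio of the 46 in either line, with probe sets from 1.72 to 2.49. That value came from a probe set with 74.32 in the pool, below the array median. The brightest ASPM probe set gave 1.72 in NGP, below the 2.04 of the brightest MCM4 probe set. In IMR-32 the ASPM ratio was 1.13 (probe sets 1.06 to 1.25). KIF11, the motor that pushes the spindle poles apart, was at almost one level in the lines, at 2723 in IMR-32 and 2692 in NGP, against 1204 in the pool, or 2.26-fold above the pool in IMR-32 and 2.23-fold in NGP. KIF23, a motor of the central spindle, stayed within 2-fold at 0.92 in IMR-32 and 0.68 in NGP. The motor KIF20A was at 0.68 in IMR-32 and 0.64 in NGP, and KIF4A, a motor on chromosome arms, at 0.23 in IMR-32 and 0.22 in NGP. TPX2, which activates AURKA on the spindle, was at 0.26 in IMR-32 and 0.37 in NGP. KIF2C, which takes apart microtubules at the kinetochore, was the 1 member of this group below the pool in IMR-32, with 2207 in IMR-32 and 4345 in NGP, against 3152 in the pool, and ratios of -0.44 in IMR-32 and 0.28 in NGP.

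Centromere and kinetochore genes had a median of 0.36 in IMR-32 and 0.87 in NGP. CENPF, a large kinetochore protein of G2 and M phase, had 7419 in IMR-32 and 10971 in NGP, against 3734 in the pool. It was called in NGP at 1.55 and lay just under 2-fold in IMR-32, at 0.99. The NDC80 complex, which grips microtubules, did not move as a block. Its member NUF2 had 4053 in IMR-32 and 3551 in NGP, against 1667 in the pool, and was called in both lines, at 1.28 in IMR-32 and 1.09 in NGP. Its partners NDC80, with 0.29 in IMR-32 and -0.33 in NGP, and SPC25, with -0.06 in IMR-32 and 0.33 in NGP, were within 2-fold. CENPA, the centromeric histone, was at 0.44 in IMR-32 and 0.88 in NGP, and the motor CENPE at 0.17 in IMR-32 and 0.86 in NGP.

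TOP2A, the topoisomerase that untangles chromosomes and the target of etoposide, had 9019 in IMR-32 and 10785 in NGP, against 4771 in the pool. Its gene ratios were 1.08 in IMR-32 and 1.43 in NGP, while its brightest probe set alone gave 0.92 in IMR-32 and 1.18 in NGP. MKI67, which encodes the proliferation antigen Ki-67, had 1575 in IMR-32 and 1021 in NGP, against 1020 in the pool. The gene ratio was 0.59 in IMR-32 and -0.01 in NGP, and all 4 MKI67 probe sets placed NGP below IMR-32, by 0.44 to 0.63.

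**Figure D4:**
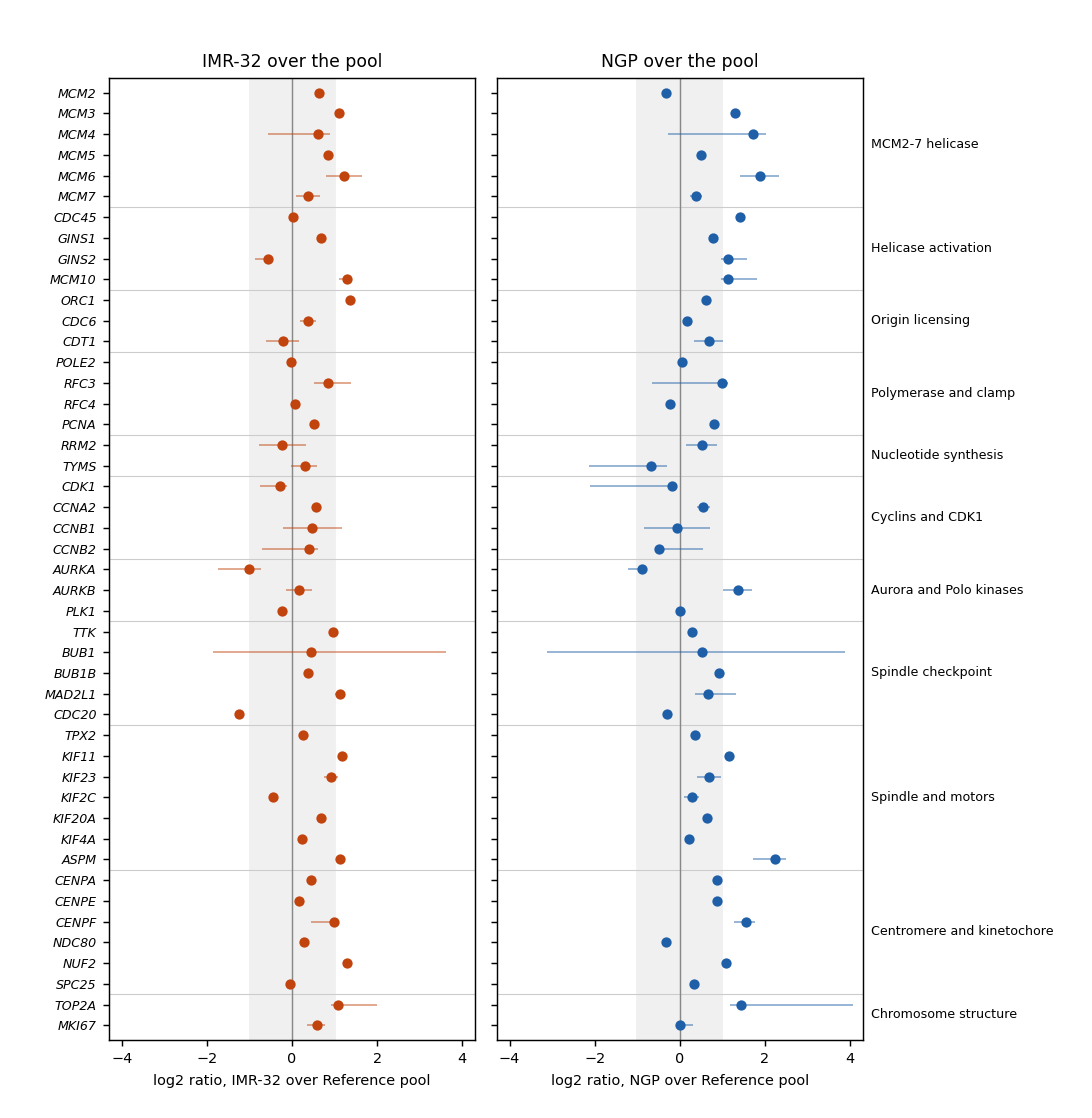
Log2 ratio of each gene over the Reference pool in IMR-32 (left) and NGP (right), with points for the median over probe sets, bars from the lowest to the highest probe set, and ratios within 2-fold shaded. Points lie mostly right of 0 in both panels, with CDC20 at -1.24 lowest and ORC1 at 1.37 highest in IMR-32, AURKA at -0.88 lowest and ASPM at 2.24 highest in NGP, and the BUB1 bars are the longest.

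Between the lines, few of these genes differed by 2-fold. The median ratio of NGP over IMR-32 was 0.07, against 0.02 for all genes, and 41 of 46 (89.1%) were within 2-fold, against 66.9% of all genes. Of the 46, 4 (8.7%) were at least 2-fold higher in NGP, against 17.2% of all genes, and 1 (2.17%) was at least 2-fold lower, against 15.9%. With dim probe sets left out the counts were again 4 and 1, against 13.3% and 13.2%. Without that filter the all-gene shares include many dim probe sets, and the ratios of a gene's probe sets had an SD of 1.28 (log2) for NGP over IMR-32 over 10523 genes with several, against 0.47 over 4262 genes with several probe sets at or above the array median in all 3 samples. The genes higher in NGP were GINS2 at 1.99 (3.96-fold), CDC45 at 1.39, MCM4 at 1.30 and AURKB at 1.20, and the gene lower in NGP was TYMS at -1.26. GINS2 alone lay in the top 7% of ratios, whose limit was 1.95 (7% of genes). The first 3 of the higher genes act at the replication fork, while AURKB acts in mitosis. AURKB has 2 probe sets, the brighter at 0.56 and the dimmer at 1.85, and the brightest TYMS probe set gave -0.62. Just outside 2-fold were ASPM at 0.99 and CDC20 at 0.93 on the high side, and MCM2 at -0.94 and ORC1 at -0.75 on the low side.

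GINS2 and TYMS, which stand at the ends of this order, both carry GCGGGAAA before the start, as printed above. The MCM2-7 ring also spanned the order, from MCM2 at -0.94 to MCM4 at 1.30. Among the other genes, KIF11, CCNA2, MCM7, KIF4A, CDK1, KIF20A, MCM10 and CCNB2 lay nearest to 0, from -0.06 to 0.05.

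**Figure D5:**
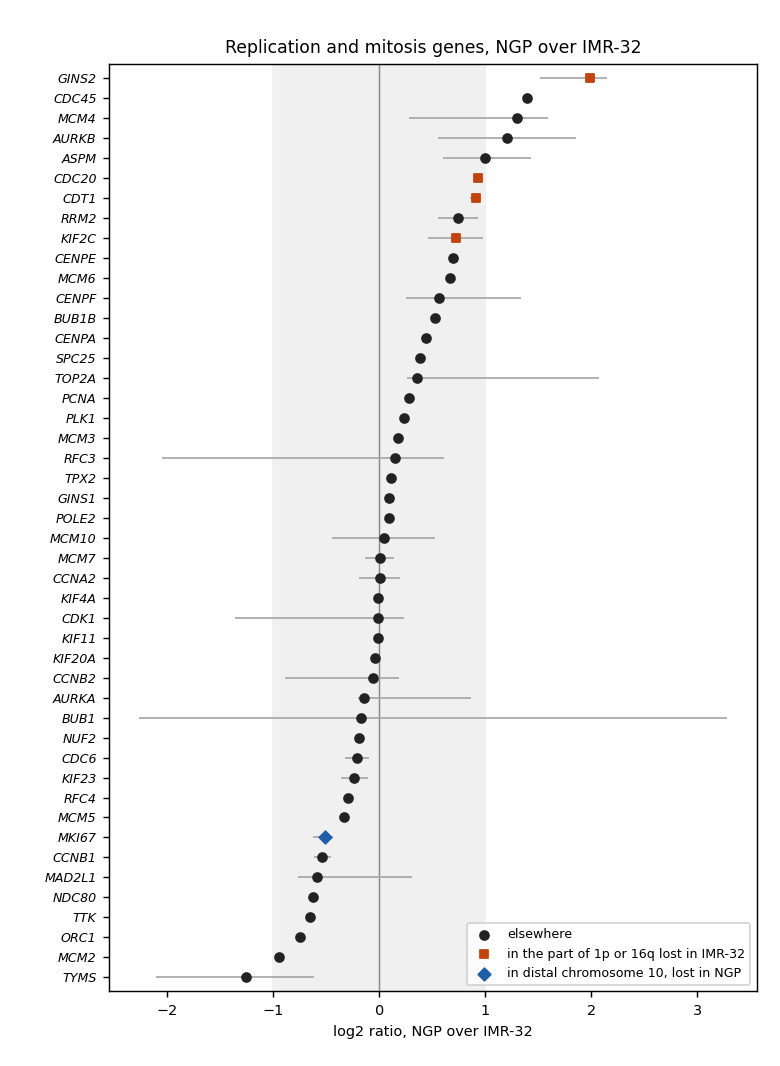
Log2 ratio of NGP over IMR-32 for each gene in order, with points for the median over probe sets, bars from the lowest to the highest probe set, and ratios within 2-fold shaded. GINS2 is highest at 1.99 and TYMS lowest at -1.26, and CDC20, KIF2C, GINS2 and CDT1 (orange squares), which lie in the parts of 1p and 16q lost in IMR-32, are all right of 0.

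Copy number loss on distal parts of 1p and 16q in IMR-32, as mapped in the study by array CGH on the same cells, covers 4 of the 46 genes by gene order, CDC20 and KIF2C on 1p and GINS2 and CDT1 on 16q. All 4 were below the pool in IMR-32, with a median of -0.50, against 6 of the other 42 genes, whose median was 0.50. Of all 19775 genes, 11549 were also below the pool in IMR-32, and the median of all genes was -0.23. The same 4 genes were all higher in NGP than in IMR-32, with a median of 0.92, against 0.00 for the other 42. Of all genes, 50.8% were higher in NGP than in IMR-32, with a median of 0.02. The list of 4 is short and was read with earlier results of these data known. With each array divided by its median, CDT1 was above the pool in IMR-32 and the other 3 remained below it. In NGP the loss on distal chromosome 10 covers MKI67, which was at -0.01 over the pool and -0.51 over IMR-32. The copy number arrays were not used here, and the part of copy number in these ratios was not tested.

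The other genes of the 2 processes also had medians above the pool. Of 41 other replication genes, the median was 0.41 in IMR-32 and 0.39 in NGP, with 8 at least 2-fold higher in IMR-32, against 14.4% of all genes, and 6 in NGP, against 15.4%, so that the share in NGP was no higher than that of all genes. In either line 0 of the 41 were at least 2-fold lower, against 26.9% of all genes in IMR-32 and 27.1% in NGP. The highest were GINS3, a GINS subunit, at 1.78 in IMR-32, CDC7, the kinase that fires origins, at 1.70 in IMR-32 and 1.20 in NGP, and TIMELESS, of the fork protection complex, at 1.56 in IMR-32 and 1.60 in NGP. CDC7 read 3885 in IMR-32 and 2736 in NGP, against 1193 in the pool. TIPIN, the partner of TIMELESS, was at -0.90 in NGP, so that the pair parted there, and TK1, a thymidine kinase, was at -0.83. Of 72 other mitosis genes, the median was 0.26 in IMR-32 and 0.33 in NGP, with 7 at least 2-fold higher and 3 lower in IMR-32, and 12 higher and 2 lower in NGP. Set against the same background, the share of higher genes was below that of all genes in IMR-32 and near it in NGP, and the share of lower genes was below it in both lines. CENPN, a centromere protein, was lowest in IMR-32 at -2.13, with 1350 in IMR-32 and 2885 in NGP, against 5130 in the pool. In NGP the highest after KNTC1 were WEE1, the kinase that restrains CDK1, at 1.48 and RACGAP1, of the central spindle, at 1.29. KNTC1, a checkpoint protein gene in the 12q24.31 amplicon of NGP, had 2675 in IMR-32 and 32238 in NGP, against 2082 in the pool. It was 15.5-fold above the pool in NGP, where the highest gene ratio of the 46, that of ASPM, was 4.73-fold.

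Among 15 regulators of these genes (E2F factors, MYBL2, FOXM1 and DREAM subunits), the median was 0.42 in IMR-32 and -0.19 in NGP, where it was 0.37 with dim probe sets left out, so its side of the pool in NGP depended on them. E2F3, an activating E2F, was highest in IMR-32 at 1.68, with 3172 in IMR-32 and 1425 in NGP, against 943.8 in the pool. E2F2, also an activator, was highest in NGP at 1.81, with 762.6 in IMR-32 and 1936 in NGP, against 551.6 in the pool. E2F7, a repressor in the family, was 2.64-fold lower in NGP, with 1500 in IMR-32 and 411.5 in NGP, against 1236 in the pool. MYBL2 was close to the pool in both lines, at 3166 in IMR-32 and 3418 in NGP, against 2472. Between the lines, the medians of NGP over IMR-32 were 0.01 for the other replication genes, 0.10 for the other mitosis genes and -0.37 for the regulators. ORC3, a subunit of the origin recognition complex, and PRIM2, a primase subunit, were lower in NGP at -1.14 and -1.12, while SPC24, a subunit of the NDC80 complex, was higher at 1.80. Housekeeping genes, 11 measured, lay at a median of -0.37 relative to the pool in IMR-32 and of -0.06 in NGP, both below those of the replication and mitosis genes.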

How the data were processed

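Gene expression was measured by the authors on Affymetrix U133 Plus 2.0 arrays, 1 for each of IMR-32, NGP and the Reference pool, from 3 micrograms of polyA RNA per sample. The deposited values are signal intensities on a linear scale that the authors computed with the MAS5 algorithm of the affy package (version not given in the sources used here). In the values themselves, the mean of each array is 500 with 2% of signals left out at each end. MAS5 subtracts a background, so that ratios of dim probe sets scatter widely.

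Of 54675 probe sets, 62 controls were left out, and 41091 that name 1 gene were used, with symbols updated by gene ID for 41037. Another 1801 name several genes and 11721 none. The log2 ratio of 2 samples was taken per probe set without a pseudocount, and a gene's value is the median over its probe sets. Calls are changes of at least 2-fold, and a dim probe set has its higher signal of the pair below the median of that array. Since no sample was repeated, no test across genes was run, and counts and medians are given beside those of all 19775 genes. The calculation was tested on simulated data. Columns of samples outside the series numbered 0.

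The 46 genes and the lists (other replication genes, other mitosis genes, regulators, housekeeping genes, and sympathoadrenal, epithelial, mesenchymal and haematopoietic markers) were chosen with earlier results of these data known. Members were described by role, and of the other lists up to 3 genes at each end were eligible for naming, where a signal of the pair reached the array median and the probe sets changed in 1 direction, besides KNTC1 and members in lost regions. Genes were placed in lost regions by gene order. Promoters are RefSeq sequences of GRCh38.p14, and motifs were searched on both strands.

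Alternatives were the scaling of the arrays (median, quantile), an offset of 32, dim probe sets, the probe set used, probe sets that may cross-hybridize, cut-offs of 1.5-fold and 3-fold, and the top and bottom 7% of genes. For the other replication and mitosis genes they were added after seeing the data. Python 3.11.15, numpy 2.4.6, pandas 2.3.3 and matplotlib 3.10.9 were used.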

Additional observations from a re-analysis of the deposited data

Results flagged for a closer look

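GINS2, a subunit of the GINS complex, and TYMS, thymidylate synthase, lay on opposite sides of the pool in the 2 lines and differed at least 2-fold between them. GINS2 was at 1.12 in NGP over the pool and at -0.56 in IMR-32 over the pool, and the ratio of NGP over IMR-32 was 1.99. TYMS was at -0.68 in NGP and at 0.31 in IMR-32 over the pool, and the ratio of NGP over IMR-32 was -1.26. With 1 array for each line, neither difference was tested. All 3 probe sets of GINS2 gave a higher level in NGP, by 1.52 to 2.15, and all 3 probe sets of TYMS a lower one, with ratios from -2.11 to -0.62.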

How the results depend on the processing

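No paired analysis was possible because each sample has a single array. For IMR-32 over the pool, the 9 genes called higher became 19 with each array divided by its median and 19 at 1.5-fold, and 0 at 3-fold and by the top 7%. Percentile 77 of all genes was at 0.59, just past 1.5-fold, and percentile 92 at 1.55, just short of 3-fold. The 2 genes called lower became 0 with each array divided by its median, at 3-fold and by the bottom 7%, and 1 without dim probe sets, with the brightest probe set and without _s_at and _x_at probe sets. The replication median of 0.52 was 0.93 with each array divided by its median, which lowers the pool by construction. For NGP over the pool, the 12 higher genes became 21 with each array divided by its median, 23 at 1.5-fold, 3 at 3-fold and 2 by the top 7%. The 0 lower genes became 1 without dim probe sets, 1 with the mean over probe sets, and 2 at 1.5-fold. They also became 2 without _s_at and _x_at probe sets, among the 38 genes measured there. Percentile 38 of all genes was at -0.58, just short of 1.5-fold lower. For NGP over IMR-32, the 4 higher genes became 11 at 1.5-fold, and 1 at 3-fold and by the top 7%. Percentile 73 of all genes was at 0.59, just past 1.5-fold, and percentile 90 at 1.54, just short of 3-fold. The 1 lower gene became 2 with each array divided by its median, 6 at 1.5-fold, and 0 with the brightest probe set, at 3-fold and by the bottom 7%. Percentile 26 of all genes was at -0.58, just short of 1.5-fold lower, and percentile 9 at -1.56, just short of 3-fold lower. Apart from the scaling, the cut-offs and the genes left without a probe set, which act by construction, the cause was not tested. Some genes called on the deposited scale passed 2-fold in the same direction in each setting that changes the values, wherever the gene had a value. Leaving aside the other cut-offs, these were 6 of 11 in IMR-32 over the pool, 11 of 12 in NGP over the pool and 3 of 5 in NGP over IMR-32. CDC45, counted in the last 2 comparisons, had no value without _s_at and _x_at probe sets. The calls lost in at least 1 setting were MCM6, AURKA, CDC20, ASPM and TOP2A in IMR-32, MCM10 in NGP, and TYMS and AURKB between the lines. No call changed its direction in these settings. Signals below the array median limit ratios of dim probe sets such as those of BUB1 and CCNB2. The CCNB2 probe set that gave its gene ratios over the pool read 15.95 in IMR-32, 8.626 in NGP and 12.03 in the pool.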

Other observations

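The regions lost in IMR-32 also hold 5 genes of the other replication and mitosis lists, a set looked at after the values of the 46 genes were seen. These are RPA2, CLSPN, CDCA8 and STIL on 1p and CENPN on 16q. Together with CDC20, KIF2C, GINS2 and CDT1, 9 of 9 were higher in NGP than in IMR-32, with a median of 0.81, against 82 of 150 elsewhere, with a median of 0.03. Of all genes, 50.8% were higher in NGP, and the unlisted genes of the lost regions were not counted. In IMR-32 over the pool 9 of 9 were below 0, with a median of -0.56, against 40 of 150 elsewhere and 11549 of all 19775 genes. CLSPN was close to the pool there, at -0.08. CDT1 and CLSPN were above 0 with each array divided by its median, and CLSPN with quantile normalization. RPA2, a subunit of the single-strand binding protein, had 3646 in NGP and 2086 in IMR-32, with 3107 in the pool. CENPN was below the pool in NGP too, at -1.08.

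In the regions lost in NGP, BUB3, a checkpoint protein gene on distal chromosome 10, had 4704 in NGP and 17102 in IMR-32, with 9048 in the pool, a ratio of NGP over IMR-32 of -1.57. ZW10, a kinetochore gene on distal chromosome 11, had 562.6 in NGP and 1092 in IMR-32, with 1108 in the pool. A probe set naming both CENPA and SLC35F6, left out of the gene values, read 3019 in IMR-32 and 3970 in NGP, against 2970 in the pool, with ratios of 0.02 and 0.42 over the pool, while the probe set naming CENPA alone gave 0.44 and 0.88.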
